A study of Mus musculus with 8 samples.

Results

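The genes described here are 9 small regulators of the immediate early response: Ier2, Ier5, Btg2, Sik1, Trib1, Maff, Midn, Phlda1 and Zfp36. They were chosen by name, with earlier results of these data known, and all 9 were found among the 34980 genes of the deposited counts. Each was represented by its transcript with the highest total count. Their levels were compared in layer IV of the visual cortex of B6D2 mice, dissected by hand, in 3 groups of 2 libraries each. The first group was wild type (Otx2 +/+) at postnatal day 30 (P30), the second wild type at P100, and the other heterozygous for Otx2 (Otx2 +/-) at P30. In the design text the heterozygous genotype is written Otx2 +/GFP. The homeodomain factor OTX2 is known to reach cortical interneurons from outside the cortex and to bear on the timing of visual plasticity. Tissue of 4 mice was pooled per condition. Whether the 2 libraries of a group, called a pair here, came from separate mice is not stated, and the spread behind each p-value may therefore be technical. The 2 heterozygous P100 samples were not analysed here.

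Immediate early genes are transcribed within minutes of a stimulus, without new protein synthesis. In neurons, calcium entry and the MAP kinase pathway act on factors that already sit on their promoters, SRF and CREB among them. Much attention goes to the transcription factors of this response, such as FOS and EGR1. The 9 genes here mostly encode proteins that act on other steps. IER2 and IER5 are nuclear proteins that bind the phosphatase PP2A. BTG2 and ZFP36 (tristetraprolin) recruit the CCR4-NOT deadenylase to messenger RNA. SIK1 is a salt-inducible kinase that holds CRTC coactivators of CREB in the cytoplasm. TRIB1 is a pseudokinase that brings the ubiquitin ligase COP1 to C/EBP factors. MAFF is a small MAF protein that pairs with CNC and BACH factors. Midnolin, from Midn, delivers short-lived nuclear proteins to the proteasome, immediate early proteins among them. PHLDA1 is an inducible protein with a pleckstrin homology-like domain.

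The promoter windows of 3 of the genes are shown because each holds a binding motif of the factors named above. RefSeq windows of build GRCm38.p6, from 250 bases before to 50 bases after a start site, were matched by symbol for 5 of the 9 genes: Btg2, Ier5, Zfp36, Midn with 2 windows and Maff with 3. Capitals mark the motifs, and positions count from the start site.
Btg2, chr1:134079106-134079405, minus strand: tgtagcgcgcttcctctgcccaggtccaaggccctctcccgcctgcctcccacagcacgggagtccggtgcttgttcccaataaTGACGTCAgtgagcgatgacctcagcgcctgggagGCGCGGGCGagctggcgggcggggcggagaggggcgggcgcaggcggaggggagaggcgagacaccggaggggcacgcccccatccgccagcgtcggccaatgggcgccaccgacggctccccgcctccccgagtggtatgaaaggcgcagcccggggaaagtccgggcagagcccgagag
Maff, chr15:79347270-79347569, plus strand: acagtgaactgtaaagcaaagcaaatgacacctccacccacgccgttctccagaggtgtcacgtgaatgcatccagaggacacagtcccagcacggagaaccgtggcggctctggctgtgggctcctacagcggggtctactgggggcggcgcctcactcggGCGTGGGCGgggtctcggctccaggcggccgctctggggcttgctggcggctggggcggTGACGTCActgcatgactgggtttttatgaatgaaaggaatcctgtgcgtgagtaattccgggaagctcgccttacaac
Zfp36, chr7:28379179-28379478, minus strand: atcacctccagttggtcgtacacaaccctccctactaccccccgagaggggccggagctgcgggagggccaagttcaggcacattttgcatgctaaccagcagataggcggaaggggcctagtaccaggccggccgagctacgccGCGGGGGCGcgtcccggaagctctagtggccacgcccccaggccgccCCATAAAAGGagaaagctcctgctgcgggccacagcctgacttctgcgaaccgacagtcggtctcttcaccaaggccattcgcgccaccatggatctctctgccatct
The Btg2 window held the CREB element TGACGTCA from -166 to -159, and the Maff window held it from -29 to -22. This element stood in 1.79% of the 32817 windows in the table, counted on both strands. The Zfp36 window held an SRF element, the CArG box, from -58 to -49, which stood in 1.63% of windows. All 3 windows held a GCGNGGGCG site, the motif of EGR factors, which stood in 5.56% of windows. Its positions were -131 to -123 in Btg2, -88 to -80 in Maff and -105 to -97 in Zfp36. These 3 windows were picked for their motifs, and none of the other windows of the 5 genes held this site. The Zfp36 window lies inside the counted transcript, whose annotated 5′ end is 1025 bases upstream of this start site. The shorter element TGACG, which is part of the full CREB element and stood in 20.8% of windows, was alone in 1 Midn window and in 1 further Maff window. The Ier5 window held none of the motifs searched. The AP-1 motif TGANTCA, held by 7.81% of windows, was in none of the windows of these 5 genes. A match is a run of letters, not evidence of binding.

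A second set of sequences concerns messenger RNA turnover. The heptamer TATTTAT, which ZFP36 binds in AU-rich 3′ UTRs, was searched in the 3′ UTRs of GENCODE M21. It stood at least once in 5 of the 9 genes, against 30.2% of 12752 tested genes with a 3′ UTR. The median 3′ UTR was 1726 bases in the 9 genes and 1178.5 in those tested genes, and length was not allowed for. Zfp36 itself held 3 copies, Maff and Phlda1 held 2 each, and Btg2 and Midn held 1 each. Of the tested genes, 4.01% held 3 or more copies. The 3 Zfp36 sites and 1 site each of Maff, Phlda1 and Btg2 are shown with the heptamer in capitals.
Zfp36 site 1: gggcccttTATTTATgacgactt
Zfp36 site 2: gacgacttTATTTATtgtattaa
Zfp36 site 3: ttttatagTATTTATatatattg
Maff site 2: ccagagttTATTTATtttctgac
Phlda1 site 2: attatgatTATTTATtagttttt
Btg2 site 1: tgaagagcTATTTATacatgttt
No heptamer was found in the annotated 3′ UTRs of Ier2, Ier5, Sik1 and Trib1.

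The 9 genes are short (coordinates of mm10, from GENCODE M21). Ier2 (chr8:84661331-84662852) and Ier5 (chr1:155096361-155099636) have a single exon. Btg2 (chr1:134075170-134079120), Phlda1 (chr10:111506286-111508645) and Zfp36 (chr7:28376784-28380253) have 1 intron. Trib1 (chr15:59648350-59657099) and the counted Maff transcript (chr15:79347520-79359076) have 2, Midn (chr10:80148272-80158368) has 8 and Sik1 (chr17:31844250-31855804) has 13. Transcript spans ran from 1522 to 11557 bases with a median of 3951, and all 9 were below the median of 19561.5 bases over the tested genes. The 2708 tested genes with 0 or 1 intron had median log2 differences of 0.00 between wild-type P100 and P30 and -0.01 between heterozygous and wild-type P30, and 3.77% and 2.40% of them were called lower. Of the exon bases of Phlda1, 37.3% overlap the antisense gene Gm28592. The use of strand in counting is not given in the sources used here, so the Phlda1 values are uncertain to that extent.

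Gene-level totals ran from 11016841 to 15308781 counts per library. Otx2 had 0 counts in 5 libraries, which allows up to 0.272 CPM (counts relative to the library total, scaled to a constant sum) in the shallowest, and 73 counts in heterozygous library 2, so that its level does not check the genotype labels. Heterozygous library 2 stood apart: Ttr, the main product of choroid plexus epithelium, had 8966 counts there and at most 1 in each of the others. Heterozygous libraries had 785 and 924 TMM-scaled CPM of Xist and at most 2.48 of the Y-linked Ddx3y, while wild-type libraries had at most 0.639 of Xist and at least 146 of Ddx3y. Wild-type and heterozygous pools thus differed in sex-linked transcripts as well as genotype, and in comparisons between them sex and genotype cannot be told apart. The layer 4 markers, Rorb and Cux2 among them, had summed levels of 1057 to 1229 CPM of total counts over the 6 libraries. Of the 7 markers, Kcnh5 was called lower and Rspo1 higher at P100, Whrn and Cux1 lower in heterozygous than in wild-type P30 tissue (median log2 difference -0.38 over the 7), and Rspo1, Scnn1a and Whrn lower in heterozygous P30 than in wild-type P100 tissue, and their part in the results was not tested. In bulk tissue, fewer cells of a type and less RNA per cell cannot be told apart.

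All 9 genes were at their highest in the 2 wild-type P30 libraries. Levels are given as TMM-scaled CPM, which is counts relative to a library total corrected for composition. Among the IER genes, Ier2 had 13.8 and 9.18 CPM in the P30 wild-type pair, 2.68 and 3.34 in the P100 pair and 2.68 and 4.88 in the heterozygous pair. Ier5 had 118.9 and 141.5 CPM in the P30 wild-type pair, 106.6 and 87.4 in the P100 pair and 79.2 and 79.4 in the heterozygous pair. For both genes the wild-type P30 libraries lay above the other 4, by a wide margin for Ier2 and a narrow one for Ier5.

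Of the genes that act on messenger RNA decay, Btg2 had 94.1 and 67.2 CPM in the P30 wild-type pair, 13.9 and 29.8 in the P100 pair and 17.9 and 30.0 in the heterozygous pair. Zfp36 was near the limit of what was tested, with 1.37 and 1.53 CPM in the P30 wild-type pair, 0.724 and 0.616 in the P100 pair and 0.536 and 0.586 in the heterozygous pair. These Zfp36 levels rest on 15 and 22, 10 and 7, and 8 and 9 counts. Both genes were separated between wild-type P30 and the rest, but the few counts leave Zfp36 with wide intervals. Zfp36 passed the filter on low counts only through its wild-type P30 libraries, where it was high.

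The kinase gene Sik1 had 31.7 and 52.4 CPM in the P30 wild-type pair, 14.0 and 9.42 in the P100 pair and 11.5 and 15.9 in the heterozygous pair. The pseudokinase gene Trib1 had 48.7 and 52.9 CPM in the P30 wild-type pair, 10.4 and 9.06 in the P100 pair and 8.45 and 18.2 in the heterozygous pair. The wild-type P30 pair of Trib1 was tight and the heterozygous pair was wide, with library 2 at 2.16 times library 1.

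Maff, the transcription factor gene of the set, had 2.56 and 3.55 CPM in the P30 wild-type pair, 0.941 and 0.440 in the P100 pair and 1.07 and 0.977 in the heterozygous pair. Its counts were 28 and 51, 13 and 5, and 16 and 15. Maff was low in every group, and the P100 pair was wide for so few counts. Midn had 46.6 and 80.1 CPM in the P30 wild-type pair, 35.7 and 29.9 in the P100 pair and 29.1 and 36.8 in the heterozygous pair. Phlda1 had 16.2 and 18.1 CPM in the P30 wild-type pair, 10.9 and 9.77 in the P100 pair and 8.18 and 11.3 in the heterozygous pair. Wild-type P30 was again above the other groups in both, with the wild-type P30 libraries of Midn far apart from each other.

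**Figure D1:**
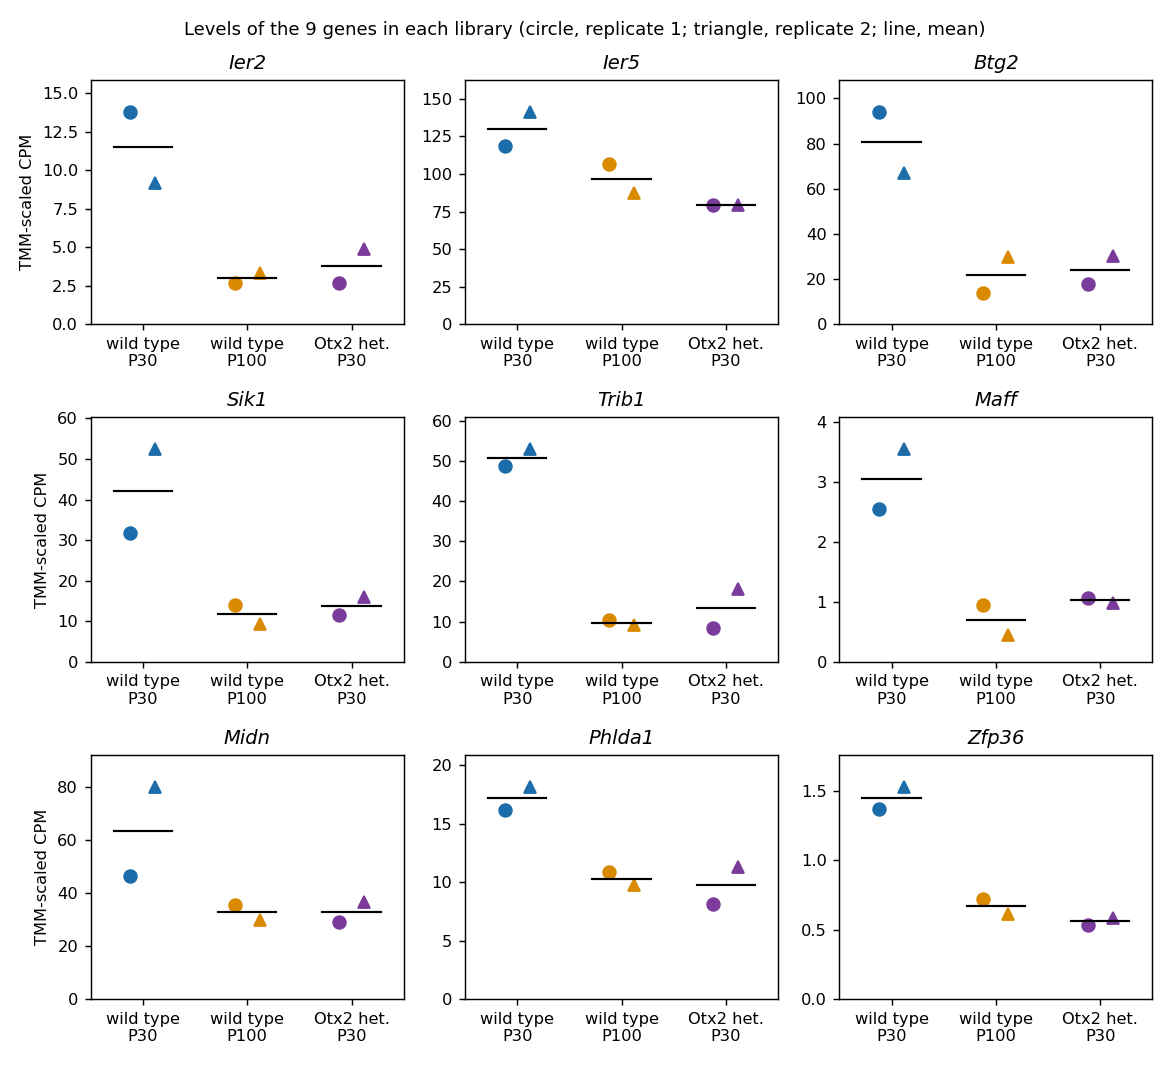
TMM-scaled CPM (y axis, linear from 0, own scale for each gene) of the 9 genes in wild-type P30, wild-type P100 and heterozygous P30 libraries. Circles are replicate 1, triangles replicate 2 and lines the mean of the 2. For every gene both wild-type P30 points lie above the other 4 points.

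Between P30 and P100 in wild-type mice, 8 of the 9 genes fell and none rose (edgeR quasi-likelihood test, Benjamini-Hochberg adjusted p under 0.05 over 15841 genes). Over all tested genes, 4.54% were called lower and 3.0% higher, and the median log2 difference was 0.00. The median of the 9 genes was -1.84. Groups did not overlap for any of the 9 genes, against 25.7% of tested genes that were lower without overlap. Zfp36 counts in this and in the median, but it passed the filter only through wild-type P30, so its direction is not support.

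Trib1 fell the most at P100, from 50.8 ± 3.0 to 9.74 ± 0.961 CPM (SD, n = 2 libraries each), 5.19-fold, with a log2 difference of -2.38 ± 0.23 (SE) and an edgeR adjusted p of 5.35e-05. Maff fell by 2.10 on the log2 scale, with a 95% interval from -2.97 to -1.24 and an edgeR adjusted p of 0.0070. Ier2 and Btg2 fell by similar amounts, 3.79-fold and 3.73-fold (edgeR adjusted p = 0.00136 and 0.00115). Sik1 fell 3.59-fold (edgeR adjusted p = 0.000332). The intervals of these 5 genes overlapped one another, so their order is not settled.

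The other 4 genes differed less. Midn, whose product clears other immediate early proteins, fell 1.94-fold (edgeR adjusted p = 0.0105), Phlda1 1.66-fold (0.0168) and Ier5 1.34-fold (0.0224). The interval of Ier5, from -0.64 to -0.21 log2, lay wholly above the intervals of the 5 genes that fell most. Zfp36 did not pass the test, at a log2 difference of -1.10 with an interval from -2.01 to -0.19 (edgeR adjusted p = 0.135). The calls for Maff and Ier5 were lost without wild-type P30 library 2 or wild-type P100 library 2, and those for Midn and Phlda1 also without wild-type P100 library 1, so that the count of 8 came down to 4 when either library 2 was left out. Without wild-type P100 library 2 the Btg2 fold was 5.77, and without wild-type P100 library 1 the Maff fold was 6.90.

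Between heterozygous and wild-type mice at P30, again 8 of the 9 genes were lower in heterozygous tissue and none higher. Over all tested genes, 2.32% were called lower and 0.903% higher. The median of the 9 genes was -1.58, beside 0.00 over all tested genes. No group overlapped the other for any of the 9 genes, against 24.4% of tested genes that were lower without overlap. Here too the direction of Zfp36, which passed the filter only through wild-type P30, is not support. This comparison shares its wild-type P30 libraries with the comparison of ages, and the 2 are not independent.

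Trib1 was also the most different gene by genotype, at 13.3 ± 6.92 CPM in heterozygous and 50.8 ± 3.0 in wild-type tissue (SD, n = 2 libraries each), 3.80-fold lower, with a log2 difference of -1.93 ± 0.22 (SE) and an edgeR adjusted p of 0.000309. Btg2 was 3.35-fold lower (edgeR adjusted p = 0.00265) and Sik1 3.08-fold lower (0.00106). Maff and Ier2 were 3.0-fold and 2.99-fold lower (edgeR adjusted p = 0.0289 and 0.00517). The intervals of these 5 genes overlapped here too, and they are the 5 that fell most with age. Midn was 1.93-fold lower (edgeR adjusted p = 0.0158), Phlda1 1.76-fold lower (0.0141) and Ier5 1.64-fold lower (0.0016). Ier5 had the narrowest interval, from -0.94 to -0.50 log2. Zfp36 did not pass, at a log2 difference of -1.36 with an interval from -2.27 to -0.46 (edgeR adjusted p = 0.101).

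The library with choroid plexus transcripts, heterozygous library 2, was above heterozygous library 1 in 8 of the 9 genes, Maff being the exception, with a median ratio of 1.38. For Ier5 the ratio was only 1.002. A larger difference of those 8 genes without library 2 follows from this order, and so does not test the part of that library. Without it the difference from wild type was larger for the same 8 genes, and 7 of the 8 calls remained, with Maff lost. The Trib1 fold was then 6.02. Leaving out heterozygous library 1 or wild-type P30 library 2 left 5 calls in each case, with Maff, Midn and Phlda1 lost. DESeq2 also called 5, losing Btg2, Maff and Midn.

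**Figure D2:**
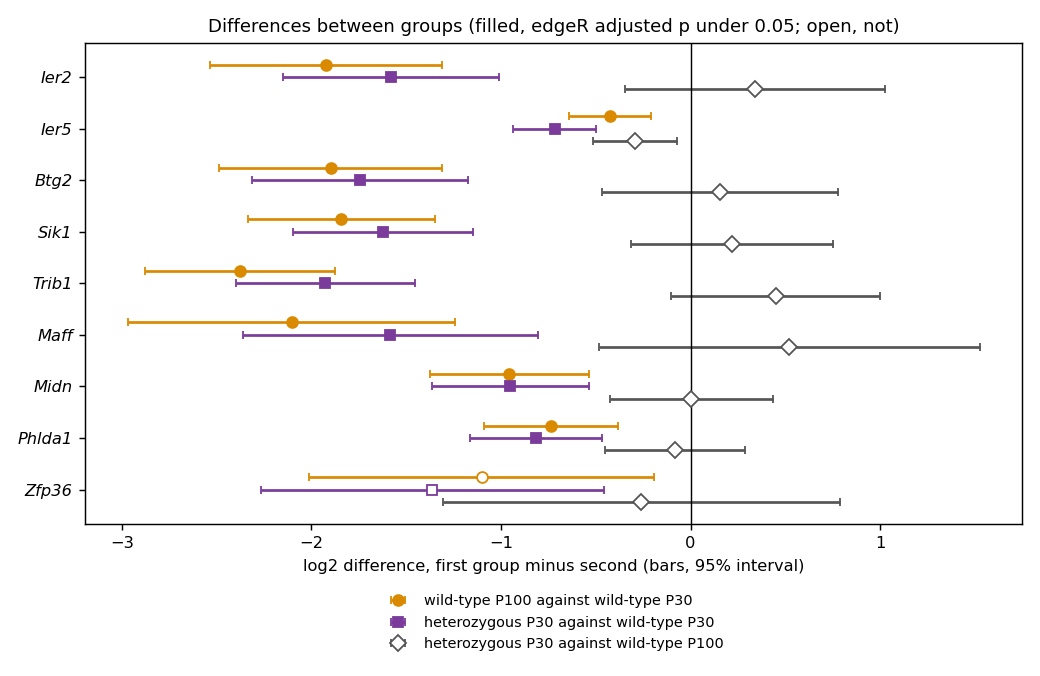
Log2 differences between groups (x axis, first group minus second) with 95% intervals for the 9 genes in the 3 comparisons, from the edgeR fit over all genes. Filled symbols passed an adjusted p of 0.05. Both comparisons with wild-type P30 lie left of 0 for every gene, and the comparison of heterozygous P30 with wild-type P100 lies between -0.29 for Ier5 and 0.52 for Maff.

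Placed against all genes by level, the 5 genes that fell most lay further below 0 than Ier5, Midn and Phlda1 in both comparisons. Their rank among genes of like level was not computed, and other genes lay lower still, Egr2 and Fos among them. Ier5 was the most abundant of the 9.

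**Figure D3:**
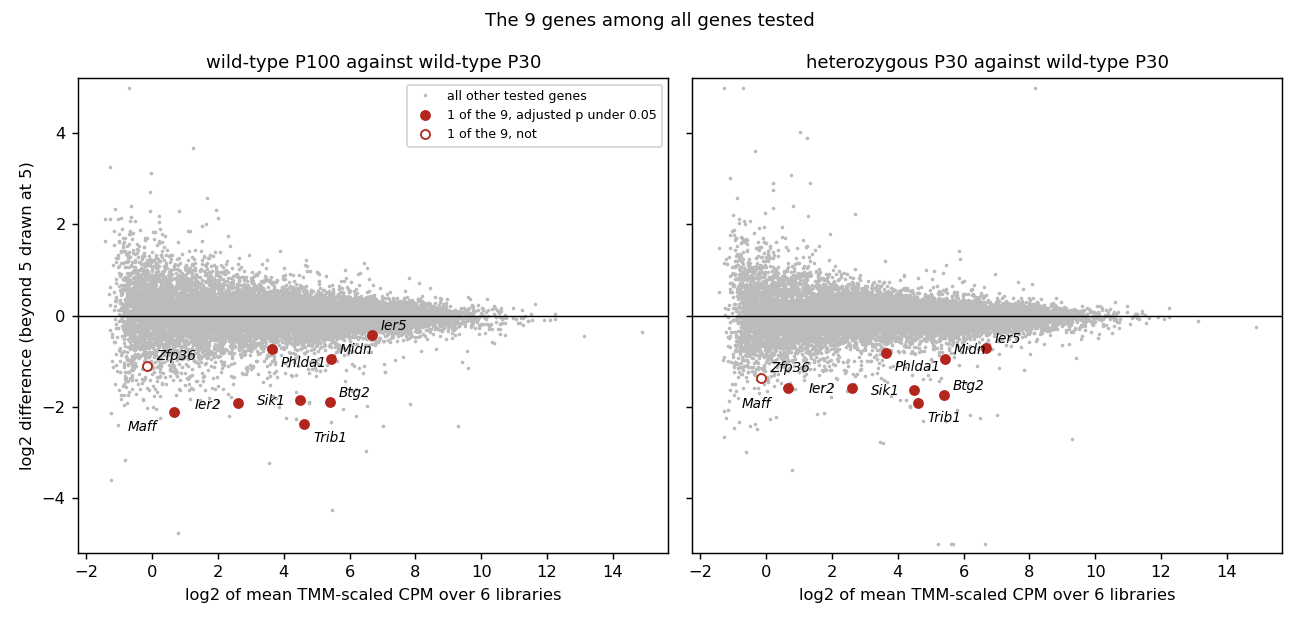
Log2 difference (y axis) against the log2 of the mean TMM-scaled CPM over 6 libraries (x axis) for all 15841 tested genes, in wild-type P100 against P30 and in heterozygous against wild-type P30. Grey points are other genes, and red points are the 9 genes, filled where the adjusted p was under 0.05. All 9 lie below 0 in both, and Zfp36 is the least abundant and the only open point.

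Heterozygous P30 and wild-type P100 tissue were then compared directly. None of the 9 genes was called in edgeR, DESeq2 or limma-voom, against 5.1% of tested genes called in either direction in edgeR, and 1 of the 9, Ier5, had an unadjusted p under 0.05. A missed threshold does not show that the levels were alike, so the intervals matter here. The interval was narrowest for Ier5, from -0.51 to -0.07 log2 around -0.29 (edgeR adjusted p = 0.128). For Phlda1 it ran from -0.45 to 0.29 and for Midn from -0.43 to 0.44. These 3 are also the genes that differed least from wild-type P30 among those called. For Sik1 it ran from -0.31 to 0.75, for Btg2 from -0.47 to 0.78, and for Ier2 from -0.34 to 1.03. Trib1 had an interval from -0.10 to 1.00, Maff from -0.48 to 1.53 and Zfp36 from -1.31 to 0.79. Differences of 2-fold or more thus lie outside the intervals of Ier5, Midn, Phlda1, Sik1 and Btg2 and inside those of Ier2, Trib1, Maff and Zfp36. Groups did not overlap for Ier5 and Zfp36, lower in heterozygous tissue, and Maff, higher, against 50.5% of tested genes without overlap in either direction. Without heterozygous library 1, Trib1 was called higher in heterozygous tissue, at 0.90 log2 (edgeR adjusted p = 0.00634), and without heterozygous library 2 it stood at -0.21. Without wild-type P100 library 2 Btg2 stood at 0.79, and without wild-type P100 library 1 Maff stood at 1.2, neither called (edgeR adjusted p = 0.222 and 0.416).

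Divided by transcript length, levels can be set in order between genes. At wild-type P30, Ier5 was highest with a mean of 39.7 CPM per kilobase, followed by Btg2 at 29.4, Midn at 17.0 and Trib1 at 11.7. Each of the last 3 was separated from the gene above it in both libraries. Sik1 at 9.30 overlapped Trib1 above it, and Phlda1 at 8.80 and Ier2 at 7.54 could not be placed apart from their neighbours above. Maff at 1.56 and Zfp36 at 0.520 closed the order, each separated from the gene above it. In wild-type P100 the order was Ier5 at 29.6, Midn at 8.80 and Btg2 at 7.97 CPM per kilobase, and the last of these overlapped Midn. In heterozygous P30 the first 3 were again Ier5 at 24.2, Midn at 8.85 and Btg2 at 8.73, with Btg2 overlapping Midn. Trib1, above Phlda1 at wild-type P30, stood below Phlda1 in both other groups, at 2.25 and 3.08 CPM per kilobase beside 5.29 and 5.0 for Phlda1, though in heterozygous P30 the libraries of these 2 genes overlapped. Ier5 led and Maff and Zfp36 closed the order in all 3 groups, though Zfp36 overlapped Maff at P100.

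Most of these genes have relatives that are not known as fast-responding to the same degree. Of 20 paralogues listed, 15 passed the filter on low counts. As a measure, edgeR called 4.54% of all tested genes lower at P100 and 2.32% lower in heterozygous tissue. At P100, 3 of the 15 were called lower (Tob1, Sik2 and Tob2) and none higher in edgeR, with a median log2 difference of -0.20. DESeq2 called 1 and limma-voom 3. In heterozygous tissue, 1 of 15 was called lower (Sik2) and none higher in edgeR, with a median of -0.32. There DESeq2 called 0 and limma-voom 1. An unadjusted edgeR p under 0.05 was reached by 8 of the 15 at P100 and 7 in heterozygous tissue. The share of all tested genes at that unadjusted p is not given here. These counts, and those of the lists below, thus have no measure beside them.

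Sik2, a kinase gene of the Sik1 family, had 49.7 and 87.4 CPM in the P30 wild-type pair, 46.0 and 35.7 in the P100 pair and 38.7 and 39.8 in the heterozygous pair. Wild-type P30 stood above both other groups without overlap, those overlapped each other, and 1 wild-type P30 library was well above the other. Its calls (edgeR adjusted p = 0.0308 and 0.0334) were both lost without wild-type P30 library 2, the first also without either P100 library, and the second also without wild-type P100 library 1 or either heterozygous library. Tob1 and Tob2, BTG family members that also bind the deadenylase, fell 1.46-fold and 1.40-fold at P100 (edgeR adjusted p = 0.0134 and 0.0393), and both calls were lost without wild-type P30 library 1 or either P100 library, that of Tob2 also without wild-type P30 library 2.

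Ier5l, the paralogue of Ier5, had 9.77 and 12.9 CPM in the P30 wild-type pair, 8.76 and 8.01 in the P100 pair and 7.78 and 7.42 in the heterozygous pair. Its log2 differences from wild-type P30, -0.45 and -0.59, stand beside -0.42 and -0.72 for Ier5, and neither was called (edgeR adjusted p = 0.136 and 0.0785). Beside Trib1, Trib2 was at 139.5 ± 19.1, 117.1 ± 20.2 and 107.7 ± 1.06 CPM in wild-type P30, wild-type P100 and heterozygous P30 (SD, n = 2). Its log2 differences from wild-type P30 were -0.25 and -0.38 (edgeR adjusted p = 0.189 and 0.0839). Of the small MAF genes beside Maff, Mafg was at 83.3, 72.6 and 71.6 CPM and Mafk at 10.9, 7.12 and 8.14 CPM in the same order, and neither passed the test. Beside Zfp36, Zfp36l1 had log2 differences of -0.16 and 0.15 and Zfp36l2 of -0.20 and -0.56, none called. Whether the 9 genes and their paralogues differ in their change was not tested.

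**Figure D4:**
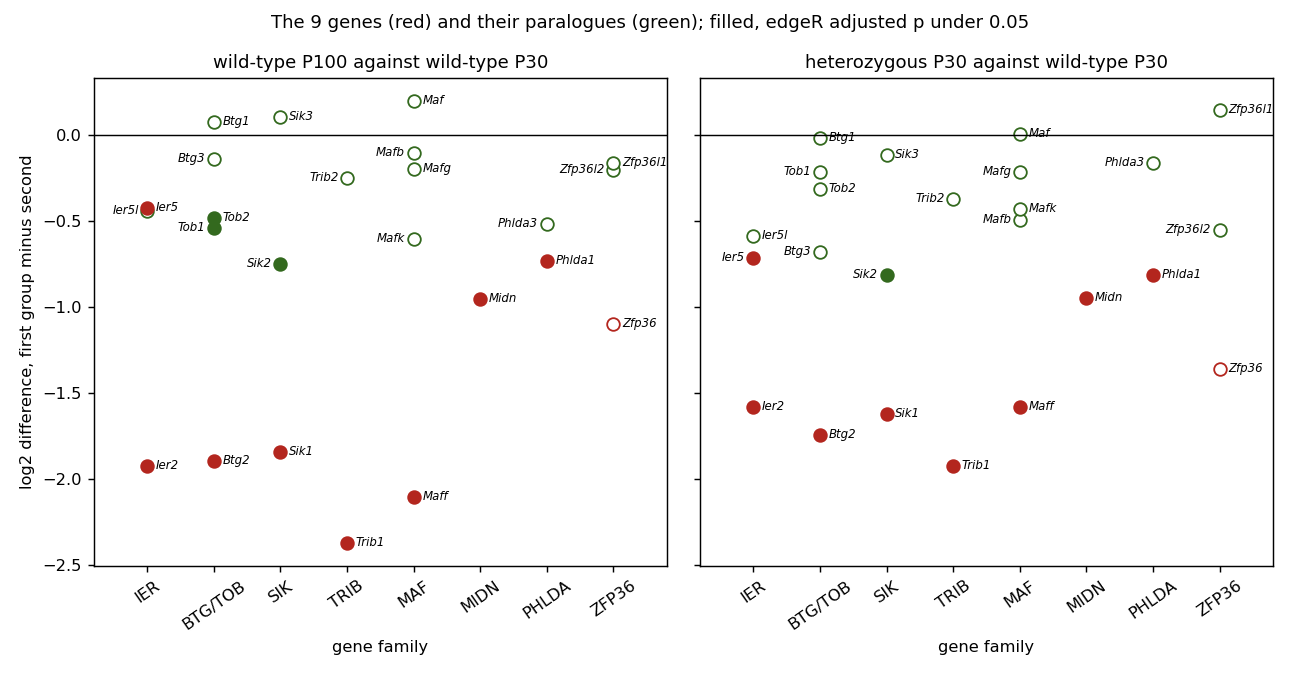
Log2 differences from wild-type P30 (y axis) of the 9 genes (red) and their tested paralogues (green), by gene family (x axis), at wild-type P100 and in heterozygous P30. Filled points passed an edgeR adjusted p of 0.05. In the BTG/TOB, SIK, TRIB, MAF and PHLDA families the red point lies lowest in both comparisons. Zfp36 lies lowest in its family too, but it passed the filter only through wild-type P30, so its place is not support. The IER family holds 2 of the 9, with Ier5l beside Ier5.

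A wider set of fast-responding genes, chosen with earlier results of these data known, was set beside the 9 genes. The shares of all tested genes called lower were 4.54% at P100 and 2.32% in heterozygous tissue, and those called higher 3.0% and 0.903%. Of 42 other immediate early genes listed, 32 were called lower and 1 higher at P100, with a median log2 difference of -1.34, and 32 lower and 1 higher in heterozygous tissue, with a median of -1.16. Atf3 counts in both medians and among those called lower in heterozygous tissue. It had 1.36 and 1.48 CPM of total counts in wild-type P30 libraries and at most 0.655 in the others. Like Zfp36 it thus passed the filter only through wild-type P30, so its direction is not support. Egr2 and Fos, which encode transcription factors, and Cyr61, which encodes a secreted matrix protein, had the smallest p of those lower at P100, at 19.3-fold, 7.80-fold and 9.45-fold (edgeR adjusted p = 1.02e-08, 7.09e-07 and 2.09e-06). In the same list Klf6, named here for going the other way after its values were seen, had 119.1 and 117.0 CPM in the P30 wild-type pair, 160.2 and 176.2 in the P100 pair and 155.1 and 162.1 in the heterozygous pair. In the direct comparison of heterozygous P30 with wild-type P100, 6 of the 42 were called higher in heterozygous tissue, Egr2, Nr4a3, Egr4, Egr1, Gadd45g and Fos, and none lower. Of all 15841 tested genes, 386 were called higher and 422 lower there. DESeq2 called 3 of the 42 there, Egr2, Nr4a3 and Egr4, and so not Fos, Egr1 or Gadd45g, and limma-voom called 6. Egr2, for example, was 3.91-fold higher there (edgeR adjusted p = 5.11e-05), where none of the 9 genes was called. The calls of Fos, Egr1 and Egr4 were lost without heterozygous library 2, those of Fos and Egr1 also without P100 library 1, and those of Egr1 and Egr4 also without P100 library 2. Whether these genes differ in their change from the 9 was not tested.

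The factors and kinases that act upstream of these genes were read against all tested genes, of which 4.54% were called lower and 3.0% higher at P100, and 2.32% lower and 0.903% higher in heterozygous tissue. Of 14 tested transcription factors and coactivators, 1 was called lower at P100, Srf, and 1 in heterozygous tissue, Crem, with median log2 differences of 0.00 and -0.15, and 4 had an unadjusted edgeR p under 0.05 in each comparison. Srf, the factor of the CArG box, fell 1.37-fold at P100 (edgeR adjusted p = 0.0263), a call lost without wild-type P30 library 2 or either P100 library. Crem, a CREB relative, had 25.6 and 34.4 CPM in the P30 wild-type pair, 27.9 and 26.7 in the P100 pair and 18.0 and 18.8 in the heterozygous pair (1.65-fold lower in heterozygous than in wild-type P30, edgeR adjusted p = 0.00999). That call was lost without wild-type P30 library 2 or heterozygous library 1. Of 22 calcium and MAP kinase pathway genes, 3 were called lower and 1 higher at P100, and 2 lower in heterozygous tissue, with medians of -0.04 and -0.01, and 6 and 8 had an unadjusted edgeR p under 0.05. Camk4, a nuclear calcium-dependent kinase that acts on CREB, was lower in both, 1.30-fold and 1.32-fold (edgeR adjusted p = 0.0101 and 0.0116). The P100 call was lost without either P100 library, and the heterozygous call without wild-type P30 library 2 or heterozygous library 2.

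Lists of partners of the proteins were short, so that at those shares of all tested genes few calls or none would stand in each, and their counts are given as a description. None of 10 genes of the SIK axis (its activating kinase complex, CRTC coactivators and class IIa histone deacetylases) was called in either comparison with wild-type P30. The same held for 20 genes of CCR4-NOT, deadenylation and decay, with which BTG2 and ZFP36 work, and for 6 tested CNC and BACH partners of small MAF proteins. DESeq2 and limma-voom called none of them either. At an unadjusted edgeR p under 0.05 there were 0 of 10, 2 of 20 and 0 of 6 at P100, and 3 of 10, 2 of 20 and 1 of 6 in heterozygous tissue. Of 5 TRIB1 partners, Cebpd was called lower in both, and the other 4, Cop1 and further C/EBP genes among them, in neither. Cebpd, itself an inducible transcription factor gene, had 7.03 and 8.55 CPM in the P30 wild-type pair, 2.17 and 2.99 in the P100 pair and 2.28 and 3.65 in the heterozygous pair. It was 3.06-fold and 2.63-fold lower (edgeR adjusted p = 0.0027 and 0.00778), and the heterozygous call was lost without wild-type P30 library 2 or heterozygous library 1. Of 11 PP2A and heat shock partners of IER2 and IER5, Ppp2r1b, a scaffold subunit of PP2A, was called lower in both, 1.66-fold and 1.71-fold (edgeR adjusted p = 0.0134 and 0.0143). Both of its calls were lost without wild-type P30 library 2, the P100 call also without wild-type P100 library 2, and the heterozygous call also without either heterozygous library.

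Among 14656 genes with a mean of at least 1 CPM, the profile most like the mean of the 9 genes over the 6 libraries was that of Tiparp (Pearson's r = 0.998, of log2 CPM). Tiparp, a mono-ADP-ribosyltransferase gene and one of the immediate early genes listed above, had 91.3 and 133.1 CPM in the P30 wild-type pair, 30.7 and 23.3 in the P100 pair and 21.9 and 31.6 in the heterozygous pair. Next came Ctla2a, Spry2, Tmem125, Cdc42bpb and Nlgn2, with r from 0.992 to 0.995. Likeness of this kind ignores size, since Cdc42bpb ran only from 187.9 to 207.0 CPM over all libraries. For single genes, the most alike were Gpr3 for Midn, Gbf1 for Maff, Epb4.1l4a for Trib1 and Taf10 for Sik1, with r of 0.997 to 0.999. For the rest they were Dlgap2 for Phlda1, Irf2bpl for Zfp36, Asic1 for Btg2, D130062J21Rik for Ier2 and Bcl2l1 for Ier5, with r of 0.991 to 0.996. With 4 of the 6 libraries at like levels, these coefficients rest mainly on the difference between wild-type P30 and the rest. Gpr3, a receptor gene, had log2 differences of -0.99 in both comparisons with wild-type P30, beside -0.96 and -0.95 for Midn.

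Of the 9 genes, 3 had several transcripts in the files, all of them lower than at wild-type P30 in both other groups. The 2 Trib1 transcripts were 5.05-fold and 5.36-fold lower in mean CPM of total counts at P100, and 3.72-fold and 3.80-fold lower in heterozygous tissue. The 2 Maff transcripts were 4.28-fold and 3.98-fold lower at P100, and 2.90-fold and 2.84-fold lower in heterozygous tissue. The 7 Midn transcripts were 1.86-fold to 2.5-fold lower at P100 and 1.86-fold to 3.63-fold lower in heterozygous tissue, where the 2 at the top of the range were also the 2 with the lowest levels, at 0.758 and 0.561 CPM of total counts. Reads are shared between them, so these are not separate measurements. In the authors' deposited table of P100 against P30, log2 differences were -2.38 for Trib1, -1.93 for Ier2, -1.88 for Btg2 and -0.42 for Ier5. The adjusted p of the authors' deposited table was 3.02e-43 for Trib1, 0.0149 for Ier2, 0.00708 for Btg2, 0.01 for Maff and 0.0259 for Phlda1, and from 0.0999 for Sik1 to 0.833 for Zfp36 in the other 4. In the authors' deposited table of heterozygous against wild-type P30, the adjusted p was under 0.05 for Trib1 (0.000801), Phlda1 (0.00159), Ier5 (0.00419), Sik1 (0.0146), Maff (0.0311) and Btg2 (0.0492), and 0.231 for Ier2, 0.316 for Midn and 0.561 for Zfp36.

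Markers of other cells were set beside these results. All 8 markers of myelinating oligodendrocytes were called lower in both comparisons with wild-type P30, and their summed levels were 3022 to 3229 CPM of total counts at wild-type P30, 1538 to 1804 at P100 and 2255 to 2317 in heterozygous tissue. Their part in the levels of the 9 genes was not tested. The summed level of 6 inhibitory neuron markers was 530.7 to 535.5 CPM at wild-type P30, 566.0 to 659.8 at P100 and 582.3 to 601.3 in heterozygous tissue, with none of the 6 called in edgeR, DESeq2 or limma-voom and 2 and 1 of them at an unadjusted edgeR p under 0.05. That of 5 excitatory neuron markers was 1755 to 2060, 1672 to 1767 and 1768 to 1904, with Slc17a7 called lower at P100. Of 7 microglial, 8 vascular and 6 astrocyte markers, 1, 3 and 2 were called lower at P100. In heterozygous tissue 1 vascular and 2 astrocyte markers were. Of 6 meningeal fibroblast markers, Igf2 was called lower at P100, and 0 were called in heterozygous against wild-type P30 tissue. Their summed levels were 13.79 to 14.43 CPM of total counts at wild-type P30, 8.446 to 10.03 at P100 and 13.81 to 16.85 in heterozygous tissue. The part of these cells in the levels of the 9 genes was not tested. The 10 choroid plexus markers summed to 158.7 to 209.1 CPM of total counts in 5 libraries and to 1057 in heterozygous library 2. In those 5 libraries nearly all of the sum was Enpp2, at 154.9 to 206.1, and Ttr had at most 1 count. In heterozygous library 2 Enpp2 stood at 430.6 and Ttr at 585.7 CPM of total counts.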

How the data were processed

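Total RNA of dissected layer IV was sequenced, per the labels. The deposited values are raw read counts per Ensembl transcript, per the file headers. Bowtie, HTSeq, DESeq 1.8.3 and mm10 stand in the submitters' processing notes, while settings, annotation and strand use are not given in the sources used here. In addition, the authors' deposited tables of comparisons hold log2 fold changes and adjusted p-values per transcript, per the file headers, and were used only where named.

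The transcript with the highest total count stood for each gene. Of 95533 transcripts, 9669 without a gene (13.96% of counts) were left out. A low-count filter (filterByExpr, minimum count 10 and total 15) and TMM scaling preceded a test across all 15841 remaining genes in edgeR 4.0.16 (R 4.3.3), by quasi-likelihood, with 1 factor of 3 groups over 6 libraries, 3 residual degrees of freedom, Benjamini-Hochberg threshold 0.05. All 9 genes passed the filter, Zfp36 through the wild-type P30 libraries. Standard errors are the log2 difference over the square root of F, and intervals are 95%. The procedure was tested on counts simulated with the same spread for every gene. That test does not show that the calls hold at the spread of these libraries. The chi-square per degree of freedom between paired libraries was 4.17 to 5.4, above sampling noise.

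The alternatives tried were scaling by RLE or upper quartile, no filter, CPM of 1 in 2 libraries, DESeq2 1.42.0, limma-voom (limma 3.58.1), the 4 libraries compared alone, summed transcripts, a replicate block, and leaving out each library. All members and lists were chosen with earlier results of these data known. Named list genes are up to 4 per list with the smallest p among those called, of which the text describes a part. Paralogues not called were named for comparison.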

Additional observations from a re-analysis of the deposited data

How the results depend on the processing

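Of 133 recomputed differences of the 9 genes between P100 and P30, 120 kept their side of the threshold and 13 lost their call, and of 134 by genotype at P30 these numbers were 122 and 12, with no change of sign. Between heterozygous P30 and wild-type P100, 130 of 133 kept their side and 3 gained a call. There the uncalled differences of Ier2, Btg2, Sik1, Trib1, Midn and Phlda1 changed sign in at least 1 setting that left out a library. Beyond the libraries named above, calls were lost for Ier5 and Phlda1 (P100) and Maff and Phlda1 (genotype) with summed transcripts, and for Midn (P100) in DESeq2. DESeq2 gave no adjusted p for Maff (P100) and Zfp36. Calls among the 9 genes numbered 4 to 8 at P100 when 1 library was left out, 5 to 8 by genotype and 0 to 1 between heterozygous P30 and wild-type P100. By genotype DESeq2 called 5. In the last comparison 2 (Ier5 and Trib1) were called with no filter. Over all genes, 1194 were called at P100 (719 lower), 511 by genotype (368 lower) and 808 in the last comparison. With no filter these counts were 1860 (1096), 1120 (728) and 1473, and with summed transcripts 791 at P100, 263 (192) by genotype and 502. Leaving out 1 library gave 351 to 1078 (233 to 661 lower), 184 to 473 (129 to 376 lower) and 255 to 942. Where a group is left with 1 library, it is assumed to vary like the others. The replicate block gave 1320, 642 and 988 calls, and changed no call of the 9 genes. Same-numbered libraries had correlations of deviations of -0.004, 0.1 and 0. The cause of these shifts was not tested. Depth limits Zfp36 and Maff most, at 7 to 22 and 5 to 51 counts.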
